A study of Mus musculus with 2 samples.

Results

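Foxp3 and 8 other forkhead transcription factors of T cells (Foxp1, Foxp4, Foxo1, Foxo3, Foxj2, Foxk1, Foxk2 and Foxn3) were followed in the open chromatin of mouse regulatory T (Treg) cells. One group lacked Tkt, the gene of transketolase, which moves carbon units between sugar phosphates in the pentose phosphate pathway. The assay, ATAC-seq, finds open chromatin by the insertion of adapters by the Tn5 transposase. The members were the peaks whose assigned gene, as given by the authors, was 1 of these 9 symbols. There were 55 such peaks among 34440 in the WT list and 39 among 19680 in the cKO list, out of 19459 gene symbols with a peak in either list. The WT Treg library came from Foxp3cre/+ females and the TKT cKO Treg library from Foxp3cre/+ TKTfl/fl females, both C57BL/6 and aged 7 weeks. From spleen and lymph node, CD4+CD25+YFP+ cells were sorted, and 50000 cells were used. Both groups thus carry the Cre allele, which Foxp3 itself drives, and the deletion in the cKO is limited to cells in which that allele is active. The labels call the mice chimeric, and the number of mice behind each library is not given in the sources used here.

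Forkhead proteins share a winged-helix DNA-binding domain. Foxp3 defines the Treg lineage, and Foxp1 and Foxp4 are its relatives of the same subfamily, which can pair with one another. Foxo1 and Foxo3 are kept out of the nucleus when AKT phosphorylates them, and in T cells they favour quiescence, homing and Foxp3 expression. Foxk1 and Foxk2 bind similar DNA motifs and are known for control of autophagy and glycolysis. Foxn3 is a repressor linked to cell cycle checkpoints, and Foxj2 is a widely expressed activator. Foxp3 expression is held by a weak promoter and by conserved enhancers inside the gene, among them CNS2, a CpG-rich element that is demethylated in stable Treg cells.

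There was 1 library per group, so differences have no replicate error and no test was made. Sequencing depth was unknown, and a region without a called peak cannot be told from one below the caller's threshold. The strength of a peak is given as the percentile of the authors' score within its own list, where 100 is the strongest. The lists differ in length, so a percentile in one is not a change from the other. A peak is called shared when a peak of the other list overlaps it by at least 1 bp. Tkt itself had 1 peak in each list, over its promoter, at percentiles 87.6 in WT and 67.7 in cKO. Peaks do not show whether exons were deleted, so they do not check the knockout. At cell type markers, 8 of 9 Treg and CD4 T cell markers had a peak in each library, with 30 WT and 21 cKO peaks and none at Cd3g. Of 5 markers each, 3 CD8 T and NK cell, 2 B cell and 2 myeloid markers had a WT peak, against 3, 1 and 2 with a cKO peak. Of these other cells' markers, Cd8b1, Klrb1c, Eomes, Cd79a and Adgre1 had peaks in both lists. Cd79b and Spi1 had them in WT only, and Lyz2 in cKO only. The share of all genes with a peak was not computed, so these counts do not measure the purity of the sort. Among the markers with no peak in either list were Cd8a, Ncr1, Ms4a1, Pax5, Csf1r and Itgam, and any part of other cells in the peaks below was not tested.

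The sequences upstream of 5 annotated starts are printed first, because the starts of these genes differed widely in CpG content. Those of Foxp3 were among the poorer of them in CpG, though near the median of all RefSeq start windows. Each line holds the 250 bases before a RefSeq start (GRCm38.p6, the same assembly as mm10), 5′ to 3′ on the gene's strand, with each CpG in capitals. They are 2 starts of Foxp3 at chrX:7579426-7579675 (plus strand) and chrX:7580233-7580482 (plus), 2 of Foxp1 at chr6:99266516-99266765 (minus) and chr6:99028299-99028548 (minus), and that of Foxo3 at chr10:42276696-42276945 (minus).
Foxp3, first start: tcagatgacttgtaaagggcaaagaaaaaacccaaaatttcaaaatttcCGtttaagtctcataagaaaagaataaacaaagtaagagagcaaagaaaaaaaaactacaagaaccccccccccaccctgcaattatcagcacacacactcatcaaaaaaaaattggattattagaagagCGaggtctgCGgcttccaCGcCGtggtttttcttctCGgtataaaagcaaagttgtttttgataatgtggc
Foxp3, second start: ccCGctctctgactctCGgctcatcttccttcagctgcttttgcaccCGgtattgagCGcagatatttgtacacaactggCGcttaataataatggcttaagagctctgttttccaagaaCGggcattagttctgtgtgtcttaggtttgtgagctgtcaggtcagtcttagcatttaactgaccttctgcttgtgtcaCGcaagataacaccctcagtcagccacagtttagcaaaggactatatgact
Foxp1, middle start: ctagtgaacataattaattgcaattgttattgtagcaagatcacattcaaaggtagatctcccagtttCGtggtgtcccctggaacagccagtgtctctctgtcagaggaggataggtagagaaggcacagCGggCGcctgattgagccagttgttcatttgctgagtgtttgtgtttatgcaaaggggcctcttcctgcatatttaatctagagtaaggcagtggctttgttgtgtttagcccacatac
Foxp1, last start: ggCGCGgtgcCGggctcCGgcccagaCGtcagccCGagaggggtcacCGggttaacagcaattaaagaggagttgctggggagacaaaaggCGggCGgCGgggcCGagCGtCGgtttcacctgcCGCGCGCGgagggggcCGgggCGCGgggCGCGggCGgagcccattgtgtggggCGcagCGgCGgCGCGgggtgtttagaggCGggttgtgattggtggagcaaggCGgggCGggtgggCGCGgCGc
Foxo3: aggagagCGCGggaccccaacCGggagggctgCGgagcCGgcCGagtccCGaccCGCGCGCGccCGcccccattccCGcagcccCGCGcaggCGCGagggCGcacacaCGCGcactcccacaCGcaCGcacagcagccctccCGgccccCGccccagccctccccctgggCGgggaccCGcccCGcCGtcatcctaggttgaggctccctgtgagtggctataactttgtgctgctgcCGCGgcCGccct

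Foxp3 had 2 peaks in each library, and both were shared. The peak at the first start, chrX:7579609-7580481, was 873 bp wide in WT and stood at percentile 8.58, rank 31485 of 34440. Its cKO partner, chrX:7579907-7580519, was 613 bp wide and stood at percentile 4.26, rank 18842 of 19680. Among peaks within 1 kb of a start, it stood at percentile 3.46 of 13126 in WT and 1.40 of 10373 in cKO, so the promoter of the lineage factor was among the weakest called promoters of both lists. The WT peak began 67 bp before the first RefSeq start and covered it, whereas the cKO peak began 231 bp downstream of that start and covered the second one at 7580483. The edges of peaks this weak have no replicate error, and the difference in edges is given as a description.

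The second Foxp3 peak was the strong one. In WT it spanned chrX:7583208-7584740, from 3532 to 5064 bp downstream of the first start, with 1533 bp at percentile 66.1. In cKO it spanned chrX:7583390-7584634, from 3714 to 4958 bp, with 1245 bp at percentile 51.0, and lay wholly inside the WT peak. The authors placed it in the promoter class because a shorter Foxp3 transcript begins at 7586273, 1533 bp beyond the WT peak. Relative to the full RefSeq gene it is an intragenic region. Conserved Foxp3 enhancers lie in introns of the gene, but no file used here gives their coordinates, so the peak was not matched to one. In its class (1 to 3 kb from a start) it stood at percentile 83.8 in WT and 72.5 in cKO. No peak was called in the 2726 bp (WT) or 2870 bp (cKO) between both Foxp3 peaks, or over the last 10503 and 10609 bp of the gene. Foxp3 lies on the X chromosome, and these females hold 1 Cre-bearing and 1 other copy, which the lists do not separate.

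Upstream of Foxp3 the authors assigned a broad WT peak to Flicr, a long noncoding RNA gene known to restrain Foxp3 expression in Treg cells (named here after its values were seen). It spanned chrX:7572127-7575136, at -7549 to -4540 bp from the first Foxp3 start, with 3010 bp at percentile 82.1. In cKO this stretch held 2 separate peaks. The one assigned to Flicr had 857 bp at percentile 8.66, and the one nearer to Foxp3, assigned to Ppp1r3f, had 525 bp at percentile 72.9. The WT peak at Flicr was thus called as pieces in cKO, like the last Foxp1 start described below.

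**Figure D1:**
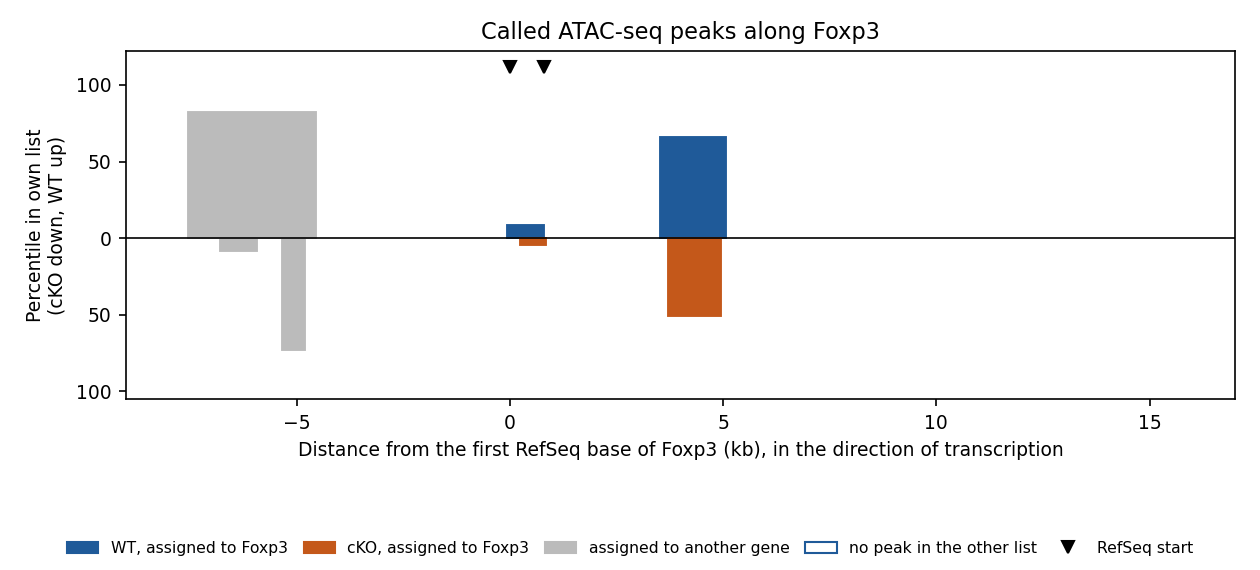
Called peaks near Foxp3 by distance from its first RefSeq base (kb, x axis), with WT percentiles drawn upward and cKO percentiles downward (y axis). Bar width is peak width, blue and orange peaks were assigned to Foxp3 and grey ones to another gene. The peak at the first start stands at percentile 8.58 (WT) and 4.26 (cKO) and the intragenic peak at 66.1 and 51.0.

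RefSeq start windows (250 bases before to 50 after the start) were found for 8 of the 9 genes, 11 windows in all; Foxk1 had none in the table. The Foxp3 windows held 6 and 8 CpG, the Foxn3 window 6, and the Foxp1 windows 13, 5 and 44, from the first start with a window to the last. The median over all 32851 windows was 7. Windows of Foxo1, Foxp4, Foxo3, Foxj2 and Foxk2 held 31, 33, 35, 37 and 59 CpG. All 5 of the latter windows were overlapped by a peak in both libraries, at WT percentiles of 78.9, 84.3, 92.6, 80.5 and 67.5 and cKO percentiles of 77.8, 77.2, 98.1, 60.4 and 52.1. Of the windows with fewer CpG, those of Foxp3 and of the middle Foxp1 start were overlapped by WT peaks of percentile 8.58 and 21.3, and the Foxn3 window by none. In 3 windows a WT peak but no cKO peak overlapped. They were the last Foxp1 window (44 CpG, WT 49.8), the first Foxp1 window (13 CpG, WT 57.5) and the first Foxp3 window (6 CpG, WT 8.58). The WT peak over each was itself shared, and the nearest cKO peak lay 317, 455 and 231 bp from the start, in that order. Over all windows, 1792 were overlapped by a WT peak only and 10408 by a peak of both lists. The last Foxp1 window was thus CpG-rich, with a WT peak below those of the 5 windows above and no cKO peak. CpG-rich windows are more often open across the genome. Of the 3837 windows with 30 CpG or more, 75.1% were overlapped by a WT peak and 67.8% by a cKO peak, against 19.5% and 14.1% of the 6074 windows with 5 to 9. Where a window with 5 to 9 CpG was overlapped by a peak, the median percentile was 69.4 in WT and 58.0 in cKO. The Foxp3 promoter peak stood well below these medians. These are descriptions over windows that share the same 2 libraries.

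Motifs were searched in the 300-base windows by their letters. The forkhead core TAAACA was sought on both strands. It occurred in 4 of the 11 windows, the first Foxp3 start and the 3 Foxp1 starts, against 13.4% of 32851 windows. In Foxp3 it began 177 bases before the start, outside the WT peak. In Foxp1 the matches began 91 bases before the first start, 77 and 16 before the middle one and 55 before the last. The TATA box, spelled TATAAA and sought on the gene's strand, can share letters with the forkhead core, but no match of one overlapped a match of the other in these windows. It occurred 32 bases before the first Foxp3 start, inside the WT peak and outside the cKO peak, and in no other window of these genes, against 8.32% of all windows. The ETS core CCGGAA, sought on both strands, was in 0 of the 11 windows and in 14.9% of all. A match is a string of letters and shows no binding.

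**Figure D2:**
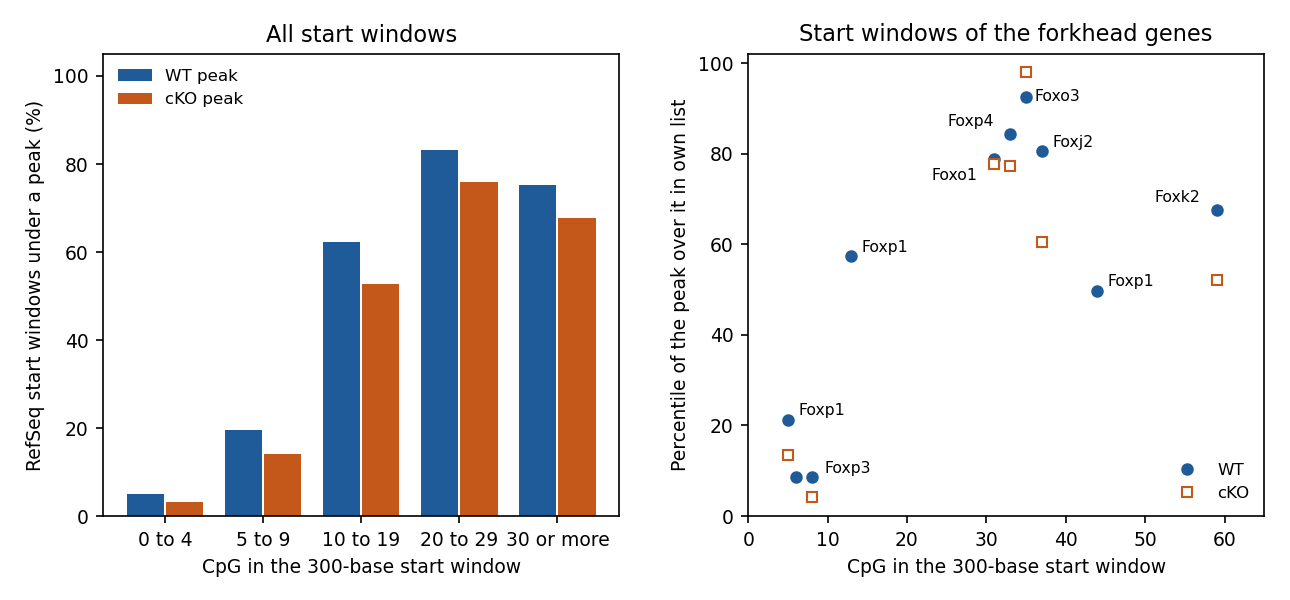
Left, share of all RefSeq start windows under a peak (y axis, percent) by the number of CpG in the 300-base window (x axis), for WT in blue and cKO in orange. Right, the windows of the forkhead genes by CpG number (x axis) and percentile of the peak over them (y axis). Foxp3 is at the lower left, and Foxo3, Foxp4, Foxo1 and Foxj2 at 31 to 37 CpG are near the top in WT. The last Foxp1 window, with 44 CpG, is at 49.8 in WT.

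Foxp1, which keeps T cells quiescent and assists Foxp3 at many Treg sites, had more WT peaks than any other of the 19215 symbols with one, at 31 against a median of 1. In cKO it had 23. Of the WT peaks 22 were shared, and each of the 23 cKO peaks overlapped a WT peak. Its RefSeq body spans 597405 bp at chr6:98925342-99522746 on the minus strand. A further 15 WT peaks with their midpoint in this body were assigned to the predicted genes Gm20705, Gm22328 and Gm49348, of which 13 were shared. The whole body thus held 46 WT and 36 cKO peaks, 7.70 and 6.03 per 100 kb, and 35 of the 46 were shared. WT peaks per 100 kb of body were more numerous at Foxp3 (12.8), Foxj2 (11.9), Foxo1 (11.0) and Foxp4 (8.70). They were fewer at Foxk1, Foxn3, Foxo3 and Foxk2, so the large number at Foxp1 goes with a long body. All 10 WT peaks assigned to Gm20705, in a stretch 118 to 195 kb from the first RefSeq base, were shared, at percentiles 19.4 to 69.1. Over the whole list 56.1% of WT peaks were shared, and 39.8% of those in introns. The strongest peak of the body was 1 of those assigned to Gm49348, in an intron at chr6:99094584-99096839, with 2256 bp at percentile 92.3 in WT and, in cKO, 2122 bp at 95.9.

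The starts of Foxp1 that the authors' transcripts use differed in their peaks. Just beyond the farthest upstream of these starts, 99520997, a WT peak of 2635 bp (chr6:99521205-99523839) began 208 bp upstream and stood at percentile 57.5. Its cKO partner of 2035 bp began 451 bp upstream and stood at 47.9. Both peaks covered 99522746, where the RefSeq body of Foxp1 begins, farther upstream. The start at 99435345 carried narrow peaks of 417 bp in WT and 579 bp in cKO, at percentiles 14.0 and 29.4. At the middle start, 99266515, they were 717 and 1004 bp wide at 21.3 and 13.5. The last start, 99028258, lay under a WT peak of 2850 bp, chr6:99025974-99028823, at percentile 49.8. In cKO 2 peaks of 476 and 671 bp, at percentiles 15.0 and 14.7, lay within that stretch or across its edge, and neither covered the RefSeq start at 99028298, which was 317 bp away. The start at 99163018 had no peak within 1 kb, and a WT peak 1739 bp upstream of it, at percentile 25.7, was unshared. Peaks therefore lay within 1 kb of 4 of these 5 starts in both libraries, counting the last start once.

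The strongest peaks assigned to Foxp1 were in introns. A WT peak in intron 8 of 17, chr6:98992466-98993883, stood at percentile 85.2, and its cKO partner at 69.4. One in intron 2, chr6:99171496-99173095, stood at 83.9 in WT and was the strongest Foxp1 peak of the cKO list, at 86.8. Further WT peaks at chr6:99260650-99261912 and chr6:99309167-99310085 stood at 81.8 and 81.1, with cKO partners at 55.7 and 67.6. The 9 unshared WT peaks were 377 to 917 bp wide and stood between percentiles 1.41 and 25.7, while the 22 shared ones ran from 10.8 to 85.2. Of those 9, 8 lay in introns, as did 24 of all 31 Foxp1 WT peaks, and 16 of these 24 were shared. In the annotation 1 shared pair, at chr6:99257745-99258433 in WT, carried the class 3′ UTR, at percentiles 10.8 and 9.16.

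**Figure D3:**
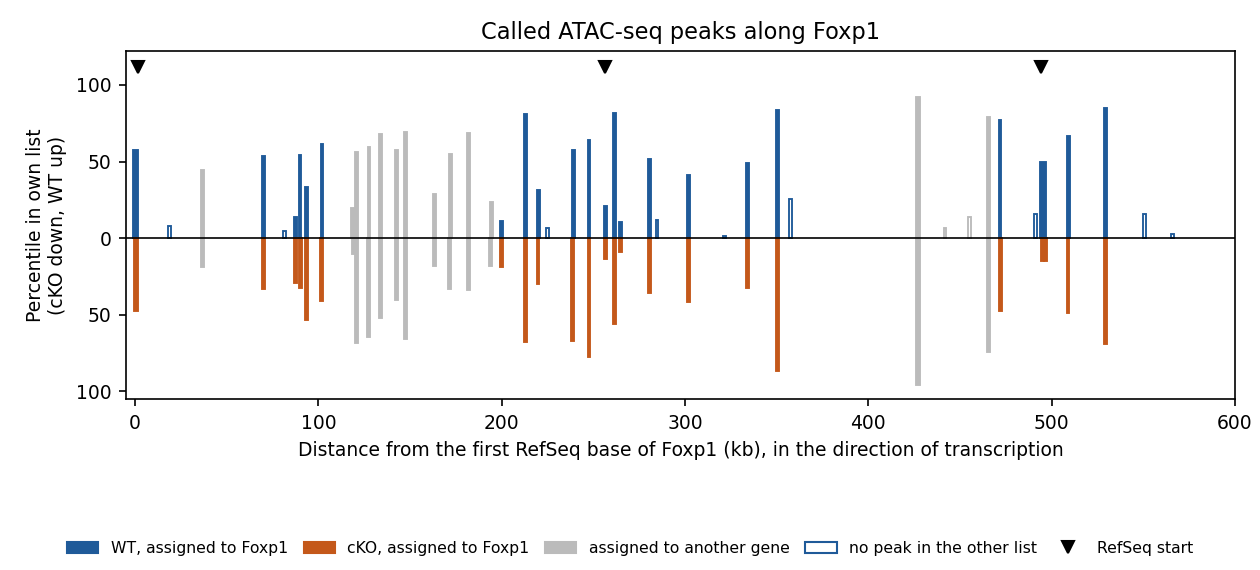
Called peaks along Foxp1 by distance from its first RefSeq base (kb, x axis), WT percentiles upward and cKO percentiles downward (y axis). Open bars have no peak in the other list, grey bars were assigned to predicted genes, and bars narrower than 1.6 kb are drawn at that width. Peaks run through the whole body, and the open bars assigned to Foxp1 stand at percentile 25.7 or lower.

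Foxp4, the other relative of Foxp3, had 2 WT peaks at its start, chr17:47923213-47923858 at percentile 10.3 and chr17:47924546-47925564 at 84.3. A single cKO peak of 1999 bp at 77.2 lay across both, so both counted as shared. Inside the Foxp4 body 4 more WT peaks were assigned to Gm15556 and n-R5s28, of which 2 were shared, among them one in intron 13 of 16 at percentile 92.7 (chr17:47873153-47874081; cKO 70.1).

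Foxo1 and Foxo3, the AKT-controlled factors, had shared promoter peaks. Among peaks within 1 kb of a start, that of Foxo1 stood at percentile 55.0 in WT and 64.9 in cKO. That of Foxo3 stood at 82.2 and 96.8. The Foxo1 promoter peak stood at percentile 78.9 in WT (chr3:52267424-52268444, 1021 bp) and 77.8 in cKO (1394 bp). Its other WT peaks, 5288 and 10281 bp upstream, stood at 41.8 and 13.9 and were unshared. That at 41.8 (chr3:52262380-52263048, 669 bp) was the strongest unshared peak among those assigned to the 9 genes. By the authors' assignment Foxo1 had no peak with its midpoint in the body, but 9 WT peaks there were assigned to the predicted genes Gm20402 and Gm38034, and 4 of them were shared. The strongest of these, chr3:52298160-52300794 in intron 1, was 2635 bp wide at percentile 75.8 in WT and 1859 bp at 62.7 in cKO. Foxo3 shared 3 of 5 WT peaks. Its promoter peak, chr10:42275823-42278246, had 2424 bp at percentile 92.6 in WT and, in cKO, 2217 bp at 98.1, rank 379 of 19680. A Foxo3 intron peak 6616 bp from the start stood at 71.5 and 44.9, and one 55894 bp away at 13.8 and 26.0. The unshared Foxo3 peaks were 414 and 418 bp wide at 22.2 and 14.2.

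Foxk1 shared 4 of 5 WT peaks, and its strongest peak was not at its promoter. That peak, chr5:142366915-142368124, lay 33373 bp upstream of the start and stood at percentile 98.3 in WT (rank 591) and 92.9 in cKO (rank 1399). Of intergenic peaks it stood at percentile 99.7 of 7087 in WT and 97.5 of 3212 in cKO. The Foxk1 promoter peak stood at 37.5 and 29.9, and a second WT peak 384 bp past a start, at 10.5, was unshared. An intron peak (WT 72.0, cKO 47.0) and one 9164 bp upstream (30.5 and 26.0) were shared. In the Foxk1 body 2 more WT peaks were assigned to the neighbour Ap5z1, of which one at 83.6 (cKO 84.1) was shared and one at 58.1 was not. Foxk2 shared the peak over its start, at 67.5 and 52.1, while a WT peak of 464 bp that began 457 bp past the start, at 1.77, was unshared.

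Foxn3 shared 4 of 4 WT peaks. Its 2 WT peaks at the start near 99393797 on chromosome 12, at percentiles 79.5 and 70.5, were both overlapped by 1 cKO peak of 2172 bp at 60.6. An intron peak (47.2 and 41.6) and one 17534 bp upstream of another start (69.5 and 54.6) completed the set. The Foxn3 start for which RefSeq gives a window, 99450074, had its nearest WT peak 17534 bp upstream. The RefSeq body of Foxn3 begins farther upstream, at 99563667. A shared WT peak assigned to Gm26839 lay at -1228 to -91 bp from that base, at 57.5 in WT and 34.5 in cKO. Another shared one lay 664 to 2072 bp past it, at 42.2 and 9.22. Including the latter, 10 WT peaks with their midpoint in the Foxn3 body went to predicted or unnamed genes, and 5 of them were shared. Foxj2 had 1 peak in each library, over its start at chr6:122820208-122821475 in WT, at percentiles 80.5 and 60.4, and both further body peaks, assigned to Mir7231, were shared.

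**Figure D4:**
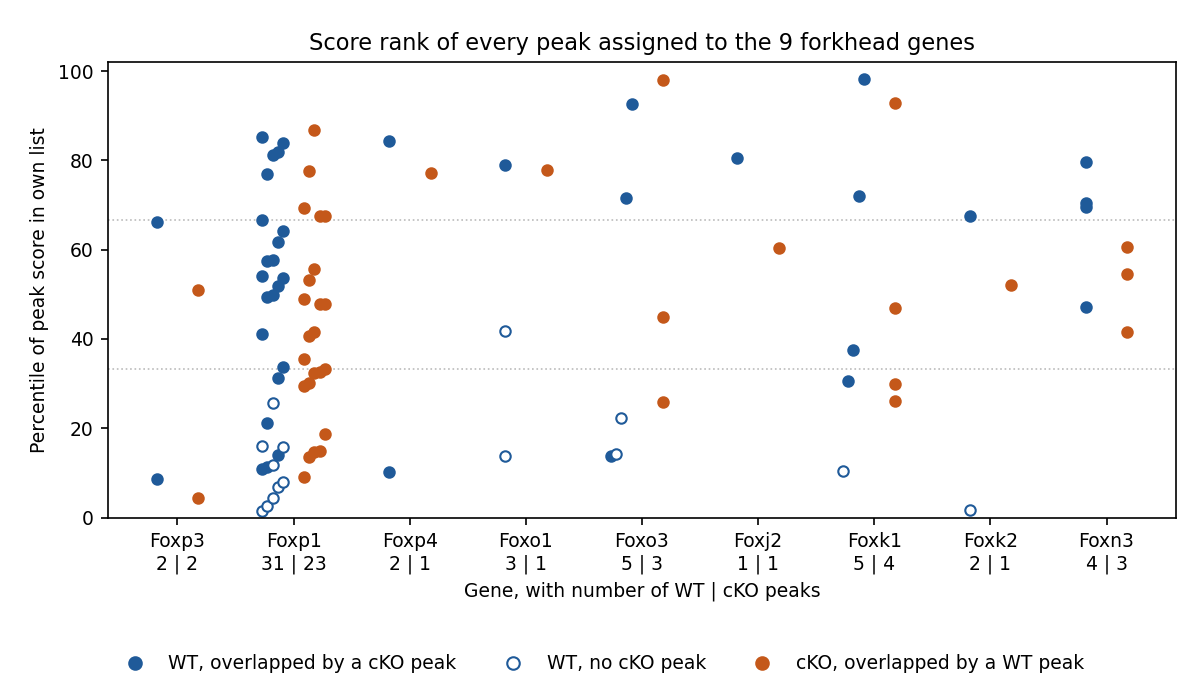
Percentile of the score of each peak in its own list (y axis) for each gene (x axis), WT in blue and cKO in orange; open circles are WT peaks without a cKO peak and dotted lines split each list into 3 equal classes. Open circles stand at 41.8 or lower, and the Foxp3 peaks at the start are among the lowest shared ones.

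By the percentile of its strongest peak in the whole list, Foxp3 ranked last of the 9 genes in both lists. In WT the order ran Foxk1 (98.3), Foxo3 (92.6), Foxp1 (85.2), Foxp4 (84.3), Foxj2 (80.5), Foxn3 (79.5), Foxo1 (78.9), Foxk2 (67.5) and Foxp3 (66.1). In cKO it ran Foxo3 (98.1), Foxk1 (92.9), Foxp1 (86.8), Foxo1 (77.8), Foxp4 (77.2), Foxn3 (60.6), Foxj2 (60.4), Foxk2 (52.1) and Foxp3 (51.0). With 1 library each no pair of neighbours in these orders can be said to differ. The orders also mix peaks of different annotation classes. Within its own class in WT the same peak stood at 99.7 (Foxk1), 97.7 (Foxp1), 83.8 (Foxp3) and 82.2 (Foxo3). It stood at 64.7 (Foxp4), 57.6 (Foxj2), 56.0 (Foxn3), 55.0 (Foxo1) and 39.2 (Foxk2). In cKO these values were 97.5 (Foxk1), 97.4 (Foxp1), 96.8 (Foxo3), 72.5 (Foxp3), 64.9 (Foxo1), 64.0 (Foxp4), 42.3 (Foxn3), 42.2 (Foxj2) and 32.7 (Foxk2). Over the 35 pairs in which 1 WT and 1 cKO peak overlapped only each other, Spearman's rho of the percentiles was 0.88 across sites, and over 18926 such pairs of all genes it was 0.90. The narrower peak of a forkhead pair was covered to a median of 99.9% and at least 76.8%.

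Over the 9 genes 40 of 55 WT peaks were shared (72.7%, Wilson 95% interval 59.8 to 82.7), against 56.1% of all WT peaks. In cKO 39 of 39 were shared, so the share of unshared cKO peaks could be up to 7.69%, against 97.6% shared among all cKO peaks. Foxp3, Foxp4, Foxj2 and Foxn3 had all their WT peaks shared, the other 5 genes had some, and none had 0. Peaks of the promoter class were shared at 16 of 19 (84.2%, 62.4 to 94.5), against 74.3% of all promoter peaks. Peaks of other classes were shared at 24 of 36 (66.7%, 50.3 to 79.8), against 41.4%, and introns at 20 of 29 (69.0%, 50.8 to 82.7), against 39.8%. The gap between promoters and other classes was 17.5 points with an interval of -7.88 to 36.8, which includes 0.

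Sharing moved with peak strength. With the WT list split by score into 3 classes of equal size, the highest class held 17 of 17 shared forkhead peaks, against 96.8% of all peaks there. In the middle class 14 of 15 were shared (93.3%, 70.2 to 98.8), against 56.2%, and in the lowest class 9 of 23 (39.1%, 22.2 to 59.2), against 15.2%. Foxp1 gave 11 of those 15 and 14 of those 23 peaks. Without Foxp1 18 of 24 WT peaks were shared (75%, 55.1 to 88.0). The 15 unshared peaks had a median percentile of 11.8 and a median width of 587 bp, against 59.6 and 1052 bp for the 40 shared ones, and 5 of them were narrower than 465 bp, the narrowest cKO peak. Intervals cover counting error only, and neighbouring peaks of a gene are not independent.

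**Figure D5:**
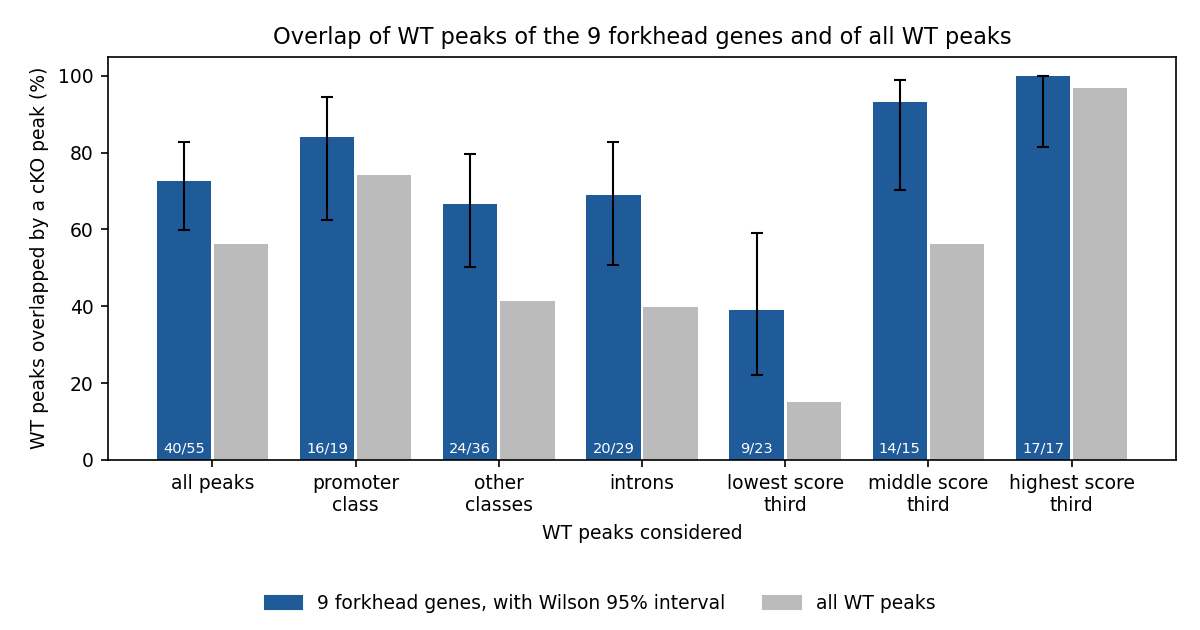
Percent of WT peaks with a partner in cKO (y axis) for the 9 forkhead genes (blue, with Wilson 95% intervals, counts in the bars) and all WT peaks (grey), by annotation and by score class (x axis). The highest score class reached 17 of 17 and the lowest 9 of 23.

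Most other forkhead genes had no called peak, and the share of all genes with a peak was not computed for comparison. Of 35 other genes 16 had a WT peak and 9 a cKO peak, and 19 had neither. Their 24 WT peaks had a median percentile of 24.3, and 12 were shared (50.0%, 31.4 to 68.6), near the 56.1% of all WT peaks. The 9 members' share was 72.7%, and the difference between these shares was not tested. The WT peaks of the members were also stronger, with a median percentile of 47.2, so the comparison is not matched for strength. Foxn2 shared both WT peaks at its promoter (83.1 and 61.8), which 1 cKO peak overlapped, and neither exon peak. Foxj3, a relative of Foxj2, shared its promoter peak (84.0; cKO 65.7) and not a second one (51.2). Foxo6 had 2 unshared WT peaks at 68.8 and 16.2, Foxa1 2 at 2.15 and 1.67 and Foxi1 2 at 23.5 and 3.35, one of these in an intron of Dock2. Foxq1 shared the weaker (5.49; cKO 17.8) of 2 intergenic peaks and not the other (24.4). Single WT peaks were shared at Foxj1, Foxd2, Foxo4, Foxc2, Foxl2, Foxp2, Foxa3 and Foxm1, and unshared at Foxd4 and Foxe3. At Foxa3 and Foxm1 the partner was assigned to the neighbours Sympk and Rhno1. Foxc2 had the only cKO peak of the family without a WT partner, at its promoter, chr8:121116067-121116839, at percentile 16.5.

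Genes that work with Foxp3 or control Foxo factors had peaks in both libraries, at 16 of 16. A WT peak was common, at 19215 symbols, and the share of all genes with a peak was not computed. These 16 genes shared 48 of 67 WT peaks (71.6%, 59.9 to 81.0), against 56.1% of all WT peaks, and 48 of 48 cKO peaks, near the 97.6% of all cKO peaks. Runx1, a DNA-binding partner of Foxp3, shared 7 of 11, its cofactor Cbfb 1 of 1 and Ikzf4, a corepressor, 2 of 2. Nfatc2, which cooperates with Foxp3 at DNA, shared 4 of 10. Bach2, which restrains effector programmes, shared 11 of 14. Among the Foxo regulators, Sgk1, a kinase of Foxo proteins, shared 4 of 5.

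By number of peaks and strongest percentile in the 2 libraries, the genes most like Foxp3 were Gfpt2, Calhm5 and Rap1a, which had 2 WT peaks, 2 cKO peaks and 2 shared. The absolute differences from Foxp3 in both percentiles added up to 0.21, 1.52 and 2.66 points, among 694 genes with the same numbers. No gene had the numbers of Foxp1. The nearest were Arid5b (19 WT, 13 cKO, 13 shared), Bcl11b (21, 12 and 12) and Prkch (18, 13 and 13).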

How the data were processed

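Both lists are ATAC-seq peaks of 1 library each. The submitters' processing notes name genome build mm10 and, as tools, BWA, MACS2, FastQC and Trimmomatic. No versions, peak calling settings or Tn5 offset were found in the sources used here. The authors deposited a score per peak, with no definition in the file headers. It was used to rank and filter peaks within its own list. Positions, widths and distances are in bp, counted from 1.

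Groups came from the sample titles. Peaks were taken by the authors' assigned gene. Overlaps were tested on simulated data and checked with bedtools 2.31.1, which differed at 0 of 34440 WT and 0 of 19680 cKO peaks. Intervals are Wilson 95% intervals, and Newcombe's for a difference. Gene bodies, starts and 250 + 50 base windows are from RefSeq (GRCm38.p6). Alternatives were a stricter overlap, score and width minimums, equal numbers of peaks, other promoter and assignment rules, and leaving out Foxp1. Named were the 9 members, other forkhead genes with a peak, with values for those with 2 or more WT peaks, and the 3 genes most like Foxp3 and Foxp1; further genes were named after their values were seen. Some listed genes are not reported here by name. The members and lists were chosen with earlier results of these data known.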

Additional observations from a re-analysis of the deposited data

How the results depend on the processing

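No paired analysis was possible because both groups consist of a single library, which also left no replicate to drop. With the WT list reduced to its strongest 19680 peaks, 28 of 28 forkhead WT peaks were shared (100%) and 28 of 39 cKO peaks (71.8%), against 83.0% of all peaks on each side. Under that setting the other forkhead genes shared 9 of 11 (81.8%), the promoter gap was 0 points, and Foxp3 kept 1 shared peak, the intragenic one. With scores at or above the median of each list Foxp3 also had 1 shared peak. The forkhead WT share was 70.9% with an overlap of 50% of the narrower peak (all peaks 55.5%), 64.0% above the medians (44.5 to 79.8; all peaks 57.0%), 79.6% with WT peaks of at least the smallest cKO width (all peaks 60.9%), 75% without Foxp1 and 70.3% for 101 peaks within 10 kb of RefSeq gene bodies. The cKO share was 93.8% (15 of 16) above the medians, below the 99.4% of all peaks there, and 100% under the other settings run on it except equal numbers. Shared WT peaks per gene moved by over 1.5 times in 5 of 9 genes above the medians, in 3 with equal numbers, in 1 (Foxp4, 1 in place of 2) with the stricter overlap and in 0 with the width minimum. The promoter gap was not computed for the gene bodies, and under the other settings its interval includes 0. Depth is unknown, so an absent peak cannot be told from one too weak to be called.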
